A study of Mus musculus with 8 samples.

Results

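The miRNAs mmu-miR-199a-3p, mmu-miR-199a-5p and mmu-miR-214, written here without the species prefix, were followed across the 3 mammary tissues of the series. They were chosen by name, as the miRNAs of the Mir199a hairpins and the 3p arm of the Mir214 hairpin, and are 3 of the 611 mouse miRNAs on the array and 3 of the 167 that were tested. The tissue came from 5-week-old female β-actin–GFP reporter mice on the FVB/n background, with no further treatment named, so every group carries the same transgene. Terminal end buds (TEBs, the growing tips of the pubertal ductal tree), mature ducts and distal stroma (the fat pad away from the ducts) were cut from mammary glands 2-5 under a fluorescence microscope, and RNA was hybridised to 3, 2 and 3 single-colour Agilent mouse miRNA arrays respectively. Neither the labels nor the methods say whether replicates came from separate animals or from pools, and p-values therefore measure the spread between these RNA samples only. The dissected pieces are bulk tissue, in which fewer cells of a type and less RNA per cell cannot be told apart. No sorted fibroblasts were measured.

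Mature miRNAs are short RNAs that are cut from a hairpin precursor and guide the silencing complex to messenger RNAs, mainly by pairing of the seed, bases 2 to 8 from the 5′ end. The Mir199a-2 and Mir214 hairpins are carried on a single long non-coding transcript, Dnm3os, which is known from embryonic mesenchyme and the skeleton and lies within the gene for the GTPase dynamin 3. The mature products are widely used as markers of fibroblasts and other mesenchymal cells, and have been studied in tissue fibrosis. A second copy of miR-199a comes from the Mir199a-1 hairpin.

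The mature sequences are shown because they define what the probes can tell apart, with the seed in capitals. They are those of RefSeq, on the GRCm38 build.
miR-199a-5p: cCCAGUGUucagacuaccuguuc
miR-199a-3p: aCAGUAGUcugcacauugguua
miR-214: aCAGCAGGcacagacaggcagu
miR-761: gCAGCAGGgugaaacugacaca

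miR-199a-5p lies at chr1:162217844-162217866 on the plus strand in Mir199a-2 and at chr9:21496537-21496559 on the minus strand in Mir199a-1, and miR-199a-3p at chr1:162217883-162217904 and chr9:21496498-21496519 in the same hairpins. miR-214, the 3p arm, lies at chr1:162223438-162223459 on the plus strand. The Mir199a-2 hairpin ends 5444 bases before the Mir214 hairpin begins, and both lie inside Dnm3os (chr1:162217623-162225550). Mir199a-1 lies within Dnm2, the gene for dynamin 2.

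The 3 mature miRNAs do not share a seed. The seeds of miR-199a-3p and miR-214 differ at 2 of 7 bases (U5C and U8G, miR-199a-3p first, counted from the 5′ end), and the seed of miR-199a-5p differs from them at 4 and 5 bases. The sequence of miR-199a-3p is found without a mismatch in another hairpin, Mir199b, which lies within the dynamin 1 gene at chr2:32318460-32318569, so the signal for miR-199a-3p cannot be divided between Mir199a and Mir199b. The best match of miR-199a-5p in the Mir199b hairpin has 1 mismatch (C10U). miR-761, from chr4:109017669-109017690, is the other miRNA in the RefSeq table with the seed of miR-214. It was on the array and was detected on 0 of 8 arrays, as was miR-214*, the name for the other arm of Mir214. The array also held miR-199b*, named for the Mir199b hairpin, without stating which arm the name stands for.

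Between 23.2% and 27.7% of the mouse miRNAs were detected on an array, and the factors that brought the arrays to a common 75th percentile were 0.75 to 1.36. Across the 167 tested miRNAs Pearson's r was 0.955 to 0.987 within a tissue and 0.645 to 0.926 between tissues. All 24 values of the 3 miRNAs were detected, with a deposited error of 8.21% to 12.6% of the signal.

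The miR-199a and miR-214 miRNAs were not stroma-enriched in these tissues. All 3 had their lowest mean in stroma, and miR-199a-5p and miR-214 were higher in both TEBs and ducts. Neither miR-199a arm differed detectably between TEBs and ducts. The differences from stroma were between 1.29-fold and 1.80-fold. Their level in fibroblasts was not measured. Values below are scaled signals in arbitrary array units, and differences are on the log2 scale unless a fold is given. Each probe has its own brightness, so levels are compared between tissues and never between miRNAs.

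miR-214 showed the most graded pattern. Its scaled signal was 297, 297 and 343 on the stroma arrays, 448 and 452 on the duct arrays and 544, 609 and 536 on the TEB arrays. No stroma array reached a duct array and no duct array reached a TEB array, so the 3 tissues did not overlap. The stroma mean was 312 ± 26.4 (SD, n = 3), the duct mean 450.0 ± 2.25 (SD, n = 2) and the TEB mean 563 ± 39.7 (SD, n = 3). miR-214 was 1.80-fold higher in TEBs than in stroma (log2 0.85, standard error 0.10, adjusted p = 0.00058 from limma) and 1.44-fold higher in ducts than in stroma (log2 0.53, standard error 0.11, adjusted p = 0.017 from limma). The second of these calls was lost when stroma replicate 1 (adjusted p = 0.065 by limma) or duct replicate 2 (adjusted p = 0.082) was left out. The step from ducts to TEBs was 1.25-fold (log2 0.32, 95% interval 0.06 to 0.59) and did not pass the adjustment, with an adjusted p of 0.066 from limma. It was 0.11 without duct replicate 1 and 0.13 without TEB replicate 1, was -0.04 with no scaling between arrays, and was 0.87 (adjusted p = 0.054 from limma) with the 75th percentile taken over all mouse miRNAs. Of the tested miRNAs 22.2% had every TEB array above every duct array.

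miR-199a-5p separated stroma from both epithelial fractions, with no detectable step between the latter. Its scaled signal was 93.3, 100.0 and 107 on the stroma arrays, 158 and 172 on the duct arrays and 135, 172 and 179 on the TEB arrays. Every epithelial array lay above every stroma array, and the duct arrays lay within the range of the TEB arrays. The stroma mean was thus 100.1 ± 6.79 (SD, n = 3), the duct mean 165 ± 9.85 (SD, n = 2) and the TEB mean 162 ± 23.4 (SD, n = 3). The level in TEBs was 1.61-fold that in stroma (log2 0.69, standard error 0.13, adjusted p = 0.0048 from limma). Ducts were 1.65-fold above stroma (log2 0.73, standard error 0.15, adjusted p = 0.015 from limma), a call lost without stroma replicate 1 (adjusted p = 0.058) or duct replicate 2 (adjusted p = 0.085). TEBs and ducts differed by -0.04 with a 95% interval of -0.39 to 0.31 (adjusted p = 0.86 from limma), which leaves room for a change of up to that size either way.

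miR-199a-3p, the arm shared with Mir199b, differed least from stroma under the main scaling. Its scaled signal was 1999, 1984 and 2445 on the stroma arrays, 2716 and 2799 on the duct arrays and 2421, 2908 and 3003 on the TEB arrays. TEB replicate 1 lay just below stroma replicate 3, and the duct arrays lay above all stroma arrays, as they did for 19.8% of the tested miRNAs. Stroma averaged 2143 ± 262 (SD, n = 3), ducts 2757 ± 58.9 (SD, n = 2) and TEBs 2777 ± 312 (SD, n = 3). The 1.30-fold difference between TEBs and stroma passed narrowly (log2 0.37, standard error 0.13, adjusted p = 0.039 from limma). It no longer passed in 6 of the 8 fits that left out 1 array, those without stroma replicate 1 or 2, duct replicate 1 or 2, or TEB replicate 2 or 3, in which the adjusted p from limma was 0.062 to 0.12. The difference between ducts and stroma was of the same size (log2 0.37, standard error 0.14) with an adjusted p of 0.12 from limma, and was 0.62 (adjusted p = 0.034) without TEB replicate 1. TEBs and ducts differed by 0.00, with a 95% interval of -0.34 to 0.35. The order of the 3 miRNAs between ducts and stroma depended on the scaling. With quantile normalization miR-199a-3p differed most (0.62), beside 0.59 for miR-199a-5p and 0.53 for miR-214. In the deposited table of log2 values it also did (0.58, beside 0.54 and 0.51). Between TEBs and stroma miR-199a-3p differed least in both.

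**Figure D1:**
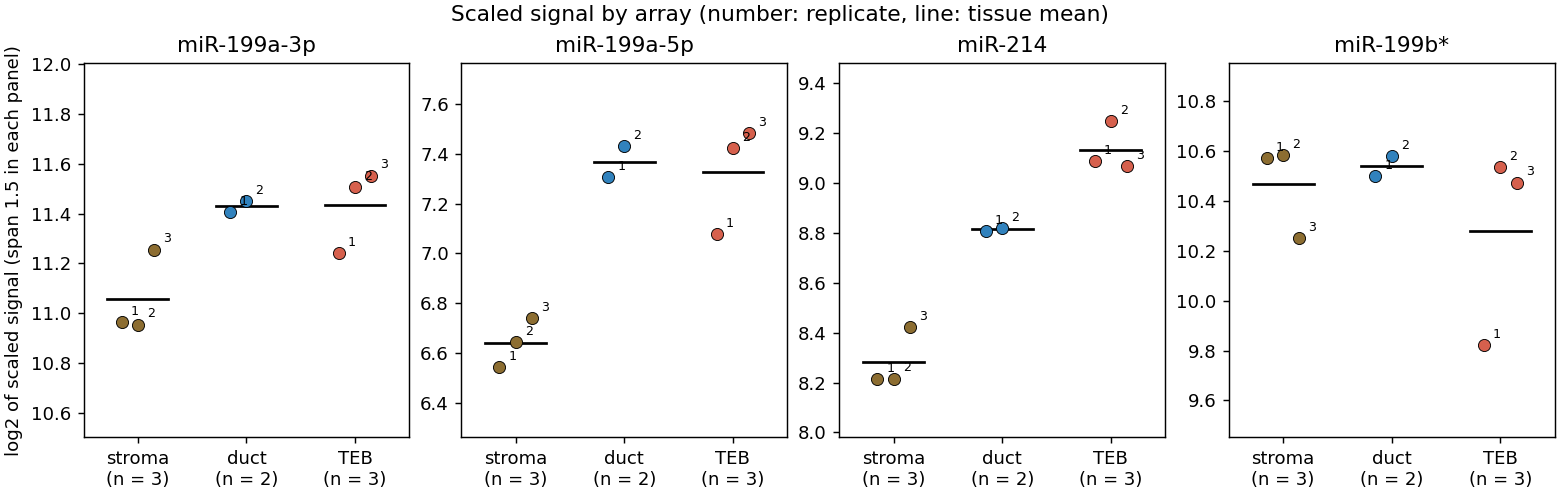
Log2 of the scaled signal (vertical axis, with the same span of 1.5 in each panel) of miR-199a-3p, miR-199a-5p, miR-214 and miR-199b* on each array, with a point per array, its replicate number beside it and a line at the tissue mean. The stroma points of miR-199a-5p and miR-214 lie below all other points, TEB replicate 1 of miR-199a-3p lies among the stroma points, and the tissues overlap for miR-199b*.

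These calls were read against those of all tested miRNAs. Between TEBs and stroma 64.7% of the 167 miRNAs were called (34, or 20.4%, higher in TEBs and 74, or 44.3%, in stroma), and all 3 of the miR-199a and miR-214 miRNAs were among the 34. Between ducts and stroma 21.6% were called (16, or 9.58%, higher in ducts and 20 in stroma), and miR-199a-5p and miR-214 were among the 16. Between TEBs and ducts 24.6% were called (19 higher in TEBs and 22 in ducts), and none of the 3 was among these 41 from limma. At an unadjusted p under 0.05, both from limma and by the methods' t-test, 1 of the 3 passed, miR-214, and after Benjamini-Hochberg adjustment it passed by neither. The 41 calls became 5 without TEB replicate 2, 10 without duct replicate 1 and 70 without TEB replicate 1. The split by direction depended on the scaling, with 38 calls for TEBs and 28 for stroma when the 75th percentile was taken over all mouse miRNAs, and 41 and 41 without scaling. The corresponding splits were 11 and 8, and 52 and 4, for ducts against stroma, and 24 and 6, and 12 and 63, for TEBs against ducts. By the size of the log2 difference in favour of the epithelial fraction, miR-214, miR-199a-5p and miR-199a-3p ranked 31, 32 and 46 of 167 between TEBs and stroma.

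**Figure D2:**
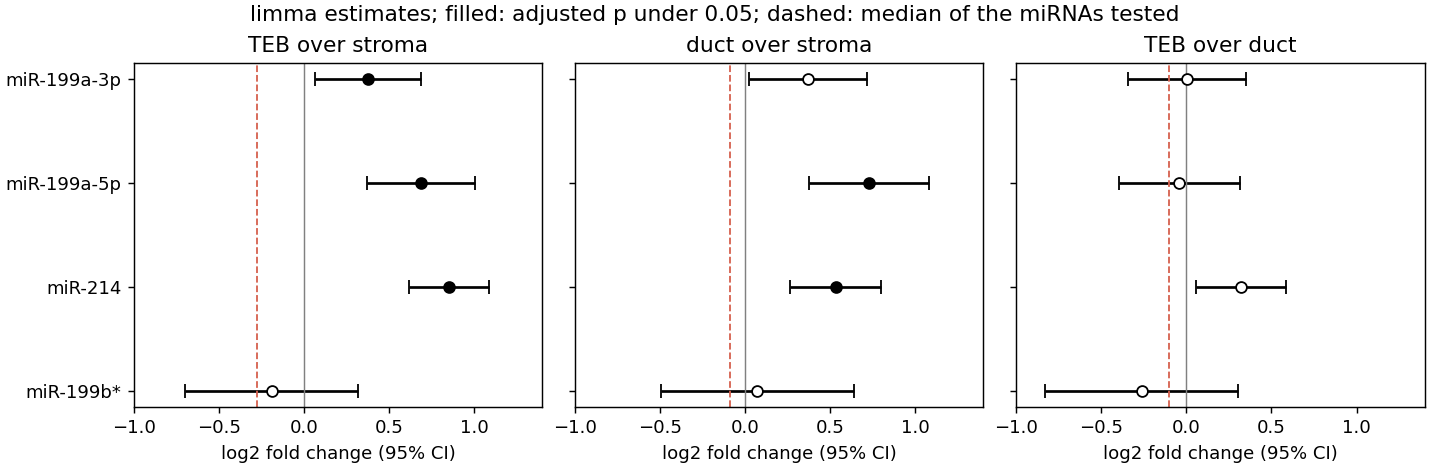
Log2 fold change (horizontal axis) with its 95% confidence interval from limma for each comparison of 2 tissues, filled where the adjusted p is under 0.05, with a dashed line at the median of the 167 tested miRNAs. The 3 miRNAs of the Mir199a and Mir214 hairpins lie to the right of 0 in both comparisons with stroma, and the intervals of both miR-199a arms between TEBs and ducts include 0.

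The 5 epithelial arrays were also set against the 3 stroma arrays as single values. miR-199a-5p was higher by 0.70 and miR-214 by 0.72 on average, without overlap, each with the smallest p that 56 arrangements of the arrays allow (exact permutation test, two-sided, p = 0.018). miR-199a-3p was higher by 0.37 with overlapping groups (exact permutation test, two-sided, p = 0.036), and its p was 0.086 to 0.095 when any of the same 6 arrays was left out. Of the 167 tested miRNAs, 22 had every epithelial array above every stroma array, or 13.2%. Comparisons of 3 arrays with 3 or with 2 cannot give an exact p under 0.1. The slide carried the arrays in 2 rows that each held all 3 tissues, and the epithelial excess over stroma was 0.42 and 0.40 for miR-199a-3p, 0.73 and 0.76 for miR-199a-5p, and 0.84 and 0.62 for miR-214 in rows 1 and 2. Row 1 held 3 epithelial arrays and 1 stroma array, and row 2 held 2 of each. For miR-199a-5p and miR-214 the sign within each row was fixed by the lack of overlap, so it adds no separate evidence.

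miR-199b*, from the Mir199b hairpin of the family, was not called in any comparison. Its scaled signal was 1523, 1534 and 1220 on the stroma arrays, 1446 and 1532 on the duct arrays and 906, 1486 and 1422 on the TEB arrays. The 3 tissues overlapped, with TEB replicate 1 the lowest array. The difference was -0.19 between TEBs and stroma (standard error 0.21, adjusted p = 0.45 from limma) and 0.07 between ducts and stroma (standard error 0.24, adjusted p = 0.89 from limma), and both changed sign under some scalings. Over the 8 arrays its log2 signal correlated with those of miR-199a-3p, miR-199a-5p and miR-214 with Pearson's r of 0.01, 0.06 and -0.30, whereas these 3 correlated with each other with r of 0.95 (both miR-199a arms), 0.85 (miR-199a-3p and miR-214) and 0.88 (miR-199a-5p and miR-214). The 8 points of these correlations share the tissue groups and the array scaling.

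Differences between 2 miRNAs within an array are unaffected by a single scaling factor per array, and show whether the 2 changed unequally between tissues. Only the change between tissues is read from them, since the 2 probes differ in brightness. The log2 difference of miR-199a-3p minus miR-199a-5p was 4.42, 4.31 and 4.52 on the stroma arrays, 4.10 and 4.02 on the duct arrays and 4.16, 4.08 and 4.07 on the TEB arrays. All stroma arrays were above all epithelial arrays, that is, miR-199a-5p increased by 0.33 more than miR-199a-3p from stroma to epithelium (exact permutation test, two-sided, p = 0.018, adjusted over the 3 pairs 0.054). This value was 0.12 after quantile normalization, which reshapes each array, and was 0.09 the other way after normexp background correction with an offset of 50. miR-214 increased by 0.35 more than miR-199a-3p from stroma to epithelium (exact permutation test, two-sided, p = 0.054, adjusted 0.080). The lowest value of this difference in any alternative was 0.049. With quantile normalization ducts exceeded stroma by 0.53 for miR-214 and 0.62 for miR-199a-3p, and TEBs exceeded it by 0.74 and 0.59. In the deposited table the duct values were 0.51 and 0.58, and the TEB values 0.75 and 0.55. miR-214 and miR-199a-5p changed by amounts that differed by 0.02, with overlapping tissues (exact permutation test, two-sided, p = 0.91).

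The same was done against miR-199b*, as a description with no test because these pairs were chosen after the values were seen. From stroma to epithelium miR-214 gained 0.81 on miR-199b*, or 1.75-fold, miR-199a-5p gained 0.79, or 1.73-fold, and miR-199a-3p gained 0.46. The epithelial and stroma arrays did not overlap for miR-214 and miR-199a-5p and overlapped for miR-199a-3p, in which stroma replicate 3 stood at 1.004 beside 0.39 and 0.37 on the other stroma arrays.

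**Figure D3:**
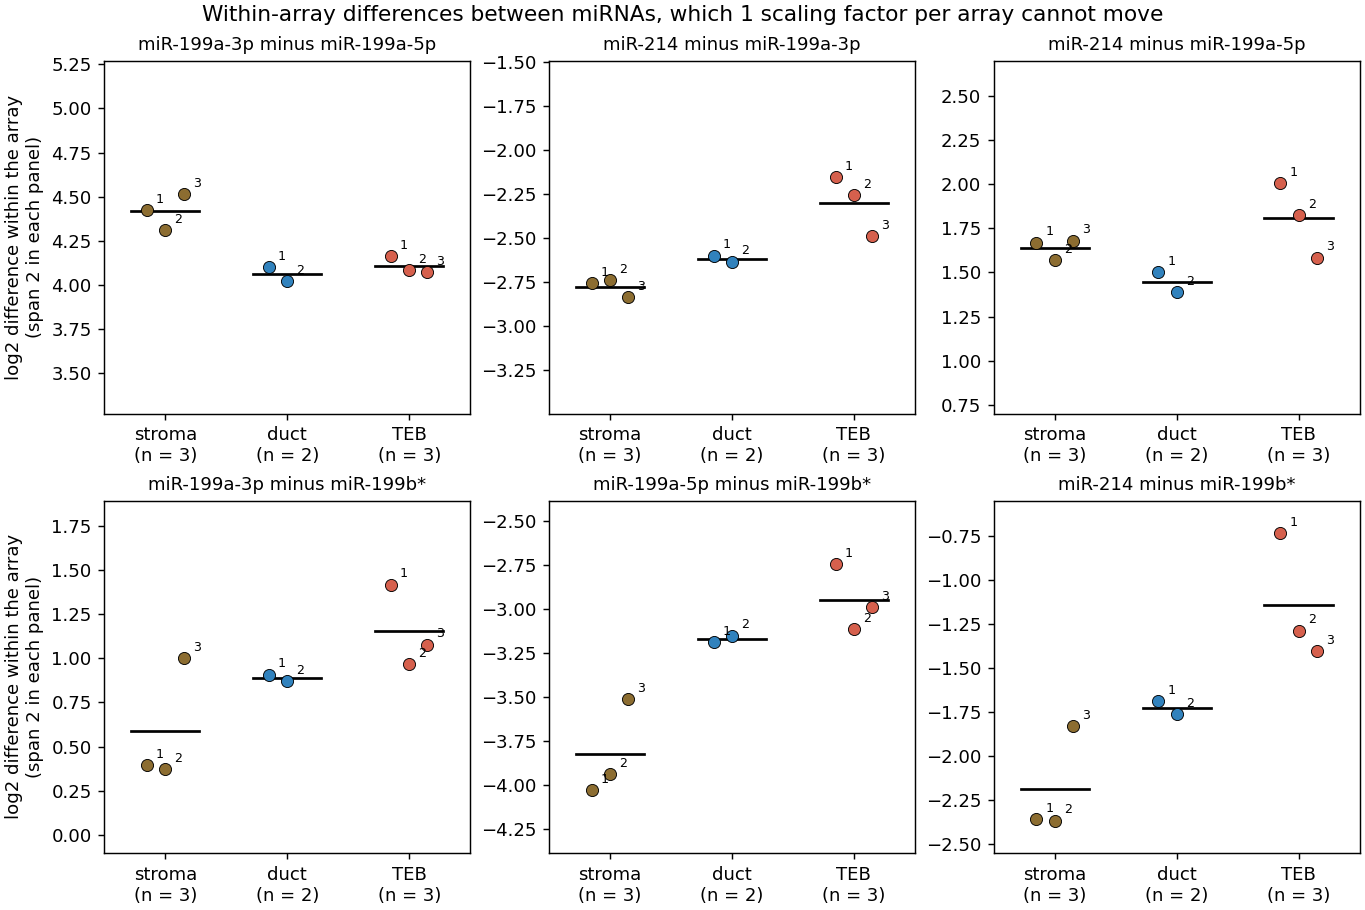
Log2 difference between 2 miRNAs on the same array (vertical axis, with the same span of 2 in each panel), with a point per array, its replicate number and a line at the tissue mean. The stroma points lie apart from the epithelial points for miR-199a-3p minus miR-199a-5p, for miR-214 minus miR-199a-3p and, on the lower row, for miR-199a-5p and miR-214 minus miR-199b*.

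The direction over stroma held under each way of bringing the arrays to a common scale. The alternatives moved the median of all tested miRNAs, by up to 0.39 for TEBs against stroma, 0.59 for ducts against stroma and 0.55 for TEBs against ducts, so changes were also read relative to that median. With scaling on the miRNAs detected on all arrays, the medians were -0.28, -0.09 and -0.10. A single factor per array moves a miRNA and the median nearly alike. Agreement between both percentile scalings and no scaling was therefore fixed in advance. Beside the main scaling, the ranges rest mainly on quantile normalization and the deposited table. Over the 5 scalings compared, TEBs exceeded stroma relative to the median by 0.77 to 1.13 for miR-214, 0.79 to 0.96 for miR-199a-5p and 0.58 to 0.67 for miR-199a-3p. Ducts exceeded stroma by 0.59 to 0.66 for miR-214, 0.63 to 0.84 for miR-199a-5p and 0.46 to 0.75 for miR-199a-3p. Between TEBs and ducts the corresponding ranges were 0.19 to 0.42, 0.06 to 0.22 and -0.05 to 0.11.

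**Figure D4:**
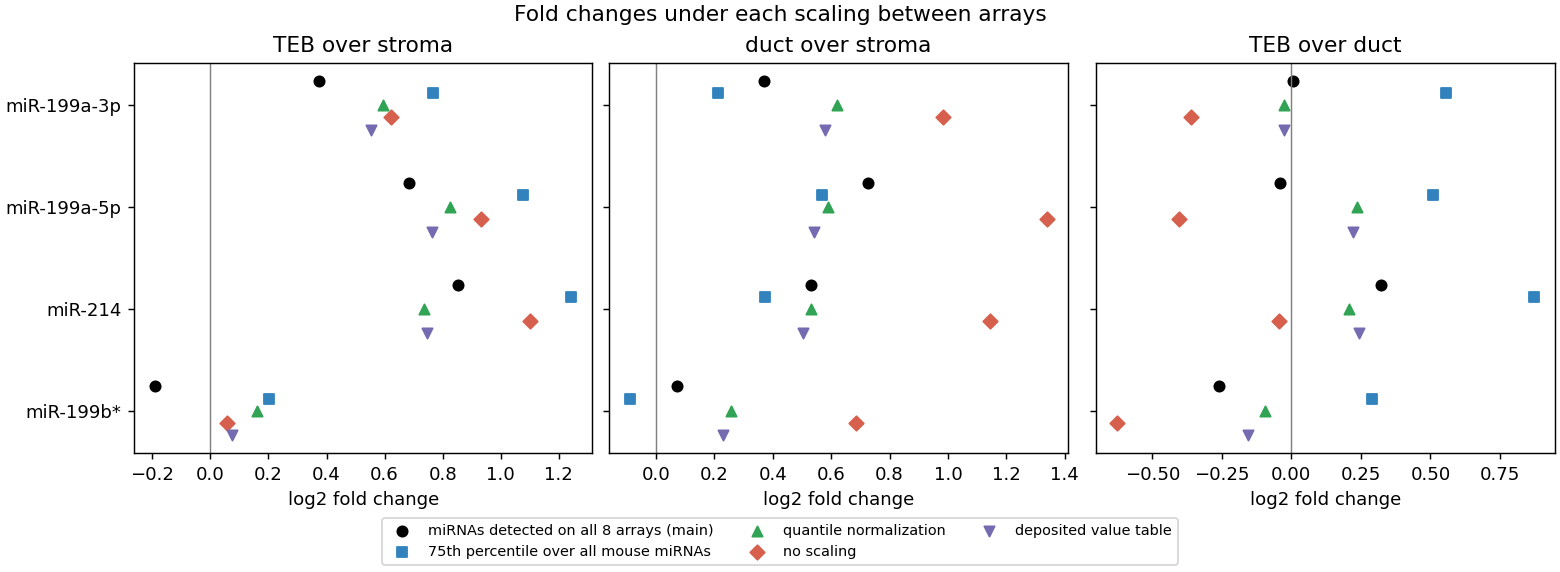
Log2 fold change (horizontal axis) of each miRNA in each comparison under 5 ways of scaling the arrays, with a symbol per scaling. In both comparisons with stroma all symbols of miR-199a-3p, miR-199a-5p and miR-214 lie to the right of 0, from 0.21 to 1.34, while symbols of the TEB and duct comparison lie on both sides.

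The miRNAs most like the 3 over the arrays were mostly epithelial. By the mean of the Pearson correlations with miR-199a-3p, miR-199a-5p and miR-214 over the 8 arrays, the 10 closest of 164 other miRNAs were miR-429 (0.922), miR-322 (0.921), miR-183 (0.911), miR-96 (0.910), miR-141 (0.904), miR-200c (0.898), miR-99a (0.897), miR-200b (0.896), miR-205 (0.892) and miR-18a (0.865). Of these, miR-429, miR-141, miR-200b and miR-200c belong to the miR-200 family, which maintains epithelial identity by repressing ZEB factors, and miR-183 and miR-96 are made from a shared cluster. Apart from miR-322 and miR-99a, these miRNAs were detected on 0 of 3 stroma arrays, so that their likeness rests on stroma signals near the floor. miR-322, an X-linked miRNA of the miR-15 seed family, changed by amounts close to those of miR-199a-5p, at 667 ± 11.4 (stroma, SD, n = 3), 1056 ± 24.0 (ducts, SD, n = 2) and 1035 ± 62.5 (TEBs, SD, n = 3). It was higher than in stroma by 0.63 in TEBs and 0.66 in ducts (adjusted p = 0.00096 and 0.0028 from limma), and the second call was lost with the 75th percentile over all mouse miRNAs (0.50, adjusted p = 0.40). The least alike were miR-30e (-0.931), miR-365 (-0.911), miR-151-5p (-0.910), miR-193b (-0.906) and miR-107 (-0.904). With the percentile over all mouse miRNAs, 3 of the 10 closest were shared, and with Spearman's correlation 6.

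A list of other miRNAs, grouped here under smooth muscle and mesenchyme, was set beside the 3. Whether its members are specific to those cells in this tissue was not tested, and miR-99a was also among the 10 closest to the 3. Of 10 smooth muscle and mesenchyme miRNAs on the array 8 were tested. None of the 8 was called higher in an epithelial fraction than in stroma, and 3 (miR-10b, miR-100 and miR-143) were called higher in stroma than in TEBs, a share near the 44.3% of all tested miRNAs. These counts moved with the scaling, to 0 higher in stroma with the percentile over all mouse miRNAs, and to 1 higher in TEBs and 5 higher in ducts without scaling. Between TEBs and ducts 4 of the 8 (miR-10b, miR-100, miR-140 and miR-143) were called lower in TEBs, beside 13.2% of all tested miRNAs. That count was 0 with the percentile over all mouse miRNAs, with quantile normalization and in the deposited table, and 6 without scaling. The median difference was -0.22 between TEBs and stroma and 0.22 between ducts and stroma, against -0.28 and -0.09 over all tested miRNAs. miR-10b, a miRNA of the Hox clusters, was at 276 ± 24.4 (stroma, SD, n = 3), 276 ± 8.44 (ducts, SD, n = 2) and 161 ± 27.3 (TEBs, SD, n = 3), lower in TEBs than in stroma by 0.79 (adjusted p = 0.0044 from limma), a call lost with that percentile (-0.40, adjusted p = 0.33) and without scaling (-0.54, adjusted p = 0.077). miR-125b-5p differed by 0.01 between TEBs and stroma (adjusted p = 0.96 from limma) and miR-99a by 0.29 (adjusted p = 0.060 from limma). miR-145, a defining smooth muscle miRNA, and miR-145* were detected on 0 of 8 arrays, whereas miR-143 was detected on all 8. Whether the miR-145 probes respond on this array was not tested.

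The Dlk1-Dio3 imprinted cluster, a large group of miRNAs expressed in embryonic and mesenchymal cells, was read in the same way. Of 18 on the array 6 were tested. In TEBs 4 of the 6 (miR-154, miR-434-3p, miR-300 and miR-337-5p) were called lower than in stroma, beside 44.3% of all tested miRNAs, with a median of -0.74, and between ducts and stroma none was called, with a median of 0.04. At 3 of the 6 (miR-434-3p, miR-300 and miR-154) TEBs were also called lower than ducts, beside 13.2% of all. The calls against stroma fell to 2 with each of the other 4 scalings, and 3 of the 6 were called higher in ducts than in stroma without scaling. The collagen-repressing miR-29a, miR-29b and miR-29c were all called lower in TEBs than in stroma, beside 44.3% of all tested miRNAs. They were lower by 0.64, 0.92 and 0.80 (adjusted p = 0.0015, 0.030 and 0.0024 from limma). In ducts miR-29c passed, lower than in stroma by 0.67 (adjusted p = 0.018 from limma), beside 12% of all. miR-29a differed by -0.36 (adjusted p = 0.056 from limma). None of the miR-29 calls held with the percentile over all mouse miRNAs (miR-29a between TEBs and stroma -0.25, adjusted p = 0.50) or without scaling (-0.39, adjusted p = 0.073).

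The epithelial and fat lists differed between the labelled tissues. Of 7 epithelial miRNAs 6 were tested, and each of the 6 was detected on 5 of 5 epithelial arrays and 0 of 3 stroma arrays. Without stroma detection, the 6 could be tested only through an epithelial fraction, so detection throughout at least 1 fraction was set by the filter. The untested miR-203 was detected on 0 of 8 arrays. The summed signal of the list was 2.71 to 16.1 in stroma, 2078 to 2316 in ducts and 1956 to 2059 in TEBs. No fold is given for the 6 because their stroma signal lies below detection. All 8 fat miRNAs were called higher in stroma than in both epithelial fractions, beside 44.3% and 12% of all tested miRNAs for TEBs and ducts, with a summed signal of 3321 to 4011 in stroma, 1584 to 1766 in ducts and 1681 to 1815 in TEBs. With the percentile over all mouse miRNAs 3 of the 8 were called against TEBs and 6 against ducts, and without scaling 8 and 4. All of them were detected on each epithelial array except miR-378*, which was missed on 1 duct array. miR-193b, a brown-fat miRNA that was among the least like the 3, was at 1048 ± 158 (stroma, SD, n = 3), 374 ± 61.0 (ducts, SD, n = 2) and 455 ± 81.3 (TEBs, SD, n = 3), and its difference between TEBs and stroma was -0.81 (adjusted p = 0.082 from limma) with that percentile. The endothelial miR-126-3p, the tested 1 of 2 in its list, was 2765 to 3863 in stroma, 1927 to 2061 in ducts and 1315 to 1650 in TEBs, lower in TEBs than in stroma by 1.20 (adjusted p = 0.00096 from limma), a call lost with that percentile (-0.81, adjusted p = 0.051).

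The blood lists held calls for TEBs against stroma, where 44.3% of all tested miRNAs were called higher in stroma, and the muscle list held none. With 2 miRNAs tested in each list, these counts are too small to set against that share. Between ducts and stroma 1 leukocyte miRNA was also called with quantile normalization and in the deposited table, and 1 muscle miRNA without scaling, higher in ducts. In TEBs against stroma neither red cell miRNA was called with any of the other 4 scalings. Among leukocyte miRNAs 2 of 5 were tested and miR-223 was called, lower in TEBs than in stroma by 0.64, with a summed list signal of 563 to 679 in stroma, 361 to 384 in ducts and 296 to 450 in TEBs. Both red cell miRNAs, miR-451 and miR-144, were lower in TEBs than in stroma, and the list summed to 1988 to 3577 in stroma, 2591 to 3276 in ducts and 1370 to 1902 in TEBs. The limma call of miR-223 was lost when stroma replicate 2 was left out (adjusted p = 0.054), and that of miR-451 without stroma replicate 1 or 2 or TEB replicate 1 or 3 (adjusted p = 0.060 to 0.089 from limma). With the percentile over all mouse miRNAs miR-223 stood at -0.24 and miR-451 at -0.46, and miR-223 lost its call in 4 and miR-451 in 6 of the 13 alternatives that did not leave out a replicate. Of 4 skeletal muscle miRNAs 2 were tested and none was called, with sums of 31.2 to 60.2, 56.1 to 179 and 17.1 to 89.5. miR-199a-5p and miR-214 were thus higher in the pieces in which the epithelial list was present and the summed fat, endothelial and leukocyte lists were lower. The part of these lists in the differences of miR-199a and miR-214 was not tested.

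**Figure D5:**
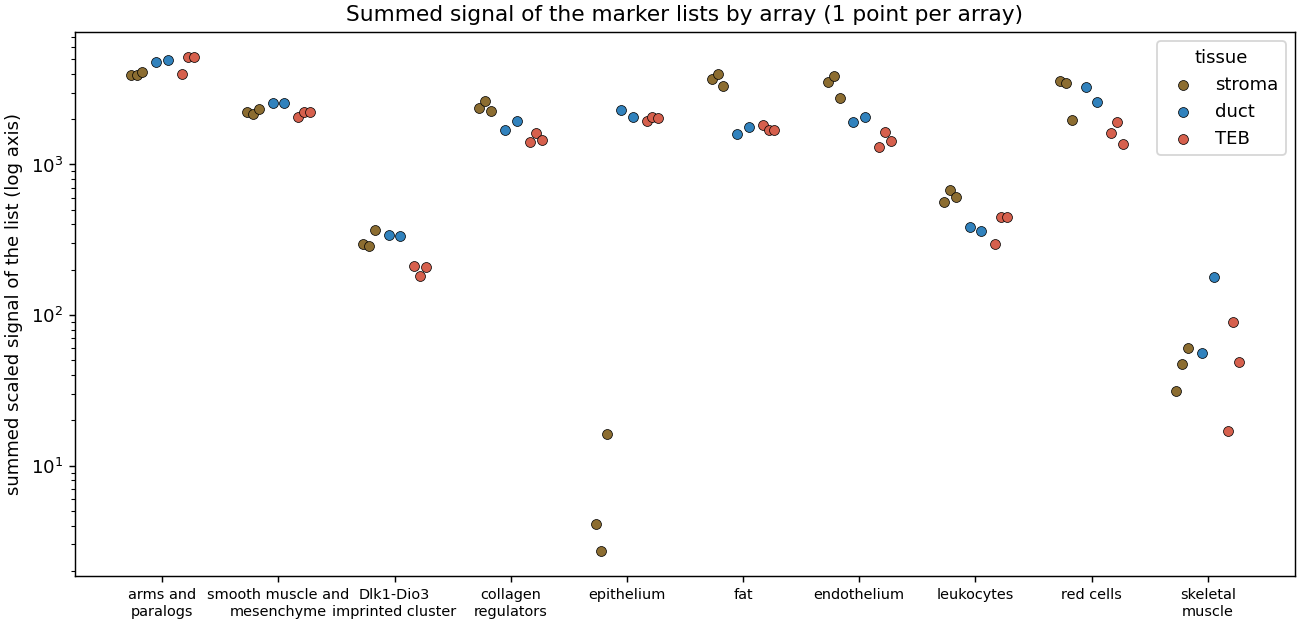
Summed scaled signal of each list on each array (vertical log axis, with a point per array, coloured by tissue). The list of arms and paralogs holds the miR-199a, miR-199b* and miR-214 signals, the epithelial list is near the floor in stroma at 2.71 to 16.1, and the fat list is highest in stroma at 3321 to 4011.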

How the data were processed

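The authors deposited, for each of the 8 arrays, the total signal intensity of 672 features with its error and a detection flag, as summarised by Agilent Feature Extraction 9.5.3 (per the submitters' processing notes) with the background subtracted and no normalization between arrays. The authors also deposited a table of log2 values in the order of those intensities, whose normalization method is not given in the sources used here. Control (22) and viral (39) features were left out, which kept 611 mouse miRNAs. Arrays were brought to a common 75th percentile, taken over those 108 miRNAs that had a detection flag on all 8 arrays. After a floor of 1, log2 values entered a single limma fit to the 8 arrays (limma 3.58.1, R 4.3.3, moderated by eBayes). Tested were the 167 miRNAs with a flag on each array of some tissue, with Benjamini-Hochberg adjustment within a comparison and a threshold of 0.05. Exact permutation tests went through every arrangement of the arrays in Python 3.11.15 with numpy 2.4.6. The fit was tested on simulated data. Tissue labels define the groups. Replicate numbers were not used to pair the arrays in the main fit. Deviations from the tissue means correlated by -0.104 on average over 7 pairs with the same number and 0.052 over 14 pairs with different numbers. Deviations from a mean of 2 or 3 arrays are forced to oppose each other. These averages therefore cannot show whether equal numbers share an animal or pool. The slide rows were read from the positions in the deposited array names.

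The 3 miRNAs and all lists were chosen with earlier results of these data known, so no p-value of a single miRNA adjusted over the 3 alone is given. The p-values adjusted over the 3 pairs of these miRNAs carry the same limit. The miRNAs named in the text are the 3, the other arms and paralogs of their hairpins, miRNAs with their seeds, the 10 most correlated, and the lists with their strongest signals as examples. The least correlated miRNAs were named after their values were seen. Signals of different probes were not compared. The number of arrays limits the precision, and no counts underlie the intensities.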

Additional observations from a re-analysis of the deposited data

How the results depend on the processing

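In every alternative that was run, miR-199a-3p, miR-199a-5p and miR-214 were higher in TEBs and in ducts than in stroma. The comparison of TEBs with stroma kept its call for miR-199a-5p and miR-214 in all alternatives. Of 285 values recomputed for 15 results, 229 kept their direction and their side of the threshold. The cause of the changes below was not tested.

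For miR-199a-3p the difference of 0.37 between TEBs and stroma lost its call without a detection filter (adjusted p = 0.097), in a fit of the 2 tissues alone (0.061) and by the methods' t-test after Benjamini-Hochberg adjustment (0.080, unadjusted 0.054). Its 0.37 between ducts and stroma gained a call at 0.62 with quantile normalization, 0.98 without scaling, 0.39 with normexp and 0.58 in the deposited table. Its difference between TEBs and ducts was -0.027 with quantile normalization, -0.025 in the deposited table, -0.36 without scaling and 0.56 with the percentile over all mouse miRNAs. For miR-199a-5p the same difference became 0.51 with the percentile over all mouse miRNAs, 0.24 with quantile normalization and 0.22 in the deposited table, and that between ducts and stroma lost its call with that percentile (0.57, adjusted p = 0.30) and without a filter (0.73, adjusted p = 0.056). For miR-214 TEBs minus ducts was -0.044 without scaling, 0.87 with that percentile and gained a call with a trended, robust eBayes (0.32, adjusted p = 0.041), and ducts minus stroma lost its call with that percentile (0.37) and by the methods' t-test after adjustment (0.53, adjusted p = 0.054), which it passed unadjusted (0.0094). With that percentile the exact test of epithelium against stroma was 0.54 (p = 0.071) for miR-199a-3p and 0.90 (p = 0.054) for miR-214. Within slide rows miR-214 differed by 0.84 and 0.62, miR-214 minus miR-199a-3p by 0.23 in row 2 and miR-214 minus miR-199a-5p by -0.14 in row 2. The last was also -0.076 with quantile normalization and -0.025 in the deposited table, and miR-199a-3p minus miR-199a-5p was 0.088 with normexp.

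For miR-199b* the difference between TEBs and stroma was 0.20 with that percentile, 0.16 with quantile normalization, 0.057 without scaling and 0.073 in the deposited table. With that percentile its differences were 0.29 between TEBs and ducts and -0.088 between ducts and stroma, that of miR-125b-5p between TEBs and ducts was 0.27, and that of miR-379 between TEBs and stroma was 0.16 (0.015 without scaling).

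The labels number the replicates, and whether equal numbers share an animal or pool is not known. With the replicate number as a block, miR-199a-3p differed by -0.075 between TEBs and ducts, the adjusted p of miR-214 between ducts and stroma was 0.055 (0.55 on the log2 scale), and 16 miRNAs were called between TEBs and ducts in place of 41. No other call of the 3 miRNAs changed with the block.

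When each array was left out in turn, the differences of miR-199a-3p were -0.23 to 0.026 between TEBs and ducts, 0.31 to 0.50 between TEBs and stroma and 0.32 to 0.62 between ducts and stroma. Those of miR-199a-5p were -0.31 to 0.020, 0.62 to 0.84 and 0.67 to 1.001, and those of miR-214 were 0.11 to 0.33, 0.79 to 0.92 and 0.50 to 0.78. Epithelium minus stroma ranged from 0.33 to 0.56 for miR-199a-3p, and miR-214 minus miR-199a-5p from -0.065 to 0.090. miR-199b* ranged from -0.32 to 0.066 between TEBs and stroma and from -0.038 to 0.33 between ducts and stroma.

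The miRNAs called numbered 41 between TEBs and ducts (75 without scaling, 18 without a filter, 12 by the methods' t-test), 108 between TEBs and stroma (66 with the percentile over all mouse miRNAs) and 36 between ducts and stroma (19 with that percentile, 56 without scaling, 66 with normexp). The methods' t-test gave 53, 108 and 47 miRNAs at an unadjusted p under 0.05 and 12, 85 and 26 after Benjamini-Hochberg adjustment. Where 1 duct array was left out, the other was assumed to vary like the other tissues.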
